A study of Mus musculus with 2 samples.

Results

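Phase II conjugation makes drugs, hormones, bile pigments and bile acids soluble enough to be excreted. The UDP-glucuronosyltransferases (UGT) attach glucuronic acid or another sugar, the cytosolic sulfotransferases (SULT) attach sulfate, and the glutathione S-transferases (GST) attach the tripeptide glutathione. Liver is the main site of all of these reactions, and many of the enzymes lie in tandem clusters of closely related genes. The genes of these 3 classes were taken by symbol (Ugt or Sult followed by a digit, and the cytosolic and mitochondrial Gst families a, m, p, t, z, o and k) from the autosomal protein-coding genes of the mm9 annotation. This gave 60 genes, 21 UGT, 17 SULT and 22 GST, of 21418. Their DNA methylation was read over the gene and 2 kb upstream of its 5' end.

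The samples were pooled liver DNA of KI mice and of WT mice, measured by reduced representation bisulfite sequencing (RRBS), in which the enzyme MspI cuts at CCGG and the ends of the fragments are read after bisulfite treatment. KI mice were homozygous for a knock-in that changes a tyrosine and a proline in the tandem Tudor domain of Uhrf1 to alanine. Uhrf1 recruits the maintenance methyltransferase Dnmt1 to replicated DNA, and the altered residues are needed for its binding to methylated lysine 9 of histone H3. WT mice were wild-type littermates. The mice in each of these groups were male and 3 months old, and the labels give C57BL/6 as the strain. The DNA of 3 mice was pooled into 1 library for each genotype, so that the spread between mice was not measured. The genotype label of the KI library reads knock out, whereas its title and the methods of the study describe a knock-in. The KI allele was made in embryonic stem cells derived from 129/SV mice.

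Each value is the share of reads that called 1 CpG cytosine methylated, and the cytosines of a CpG on its opposite strands were counted as separate CpGs. A CpG was used when it had 5 or more reads in KI and in WT, and 2654195 CpGs met this. Their median coverage was 37.0 reads in KI and 37.0 reads in WT, and their mean methylation level was 42.6% in KI and 45.6% in WT. A CpG was called when Fisher's exact test, adjusted over all of these CpGs, gave a p under 0.05 and the levels differed by more than 25 percentage points. A gene or a 5' end with 5 or more shared CpGs was called when Fisher's exact test on the summed reads and the Cochran-Mantel-Haenszel (CMH) test, which compares KI and WT within each CpG, both gave an adjusted p under 0.05 in the same direction. These tests compare 2 libraries and not the genotypes. Summed reads can also differ with no change of level, where the coverage of single CpGs differs between KI and WT. The p-values are too small, since PCR duplicates, where kept, and neighbouring CpGs on the same read were counted as independent, and all intervals given are 95% intervals for counting error only. As checks on cell makeup, the 5' ends of hepatocyte marker genes had a median level of 26.8% in KI and 39.6% in WT over 5 tested genes, with Hnf4a, Fgb and Apob called lower. Those of blood and Kupffer cell markers had 68.4% in KI and 66.0% in WT over 4 tested genes, with Cd3e called lower. Endothelial markers had 73.5% in KI and 71.3% in WT over 2 genes, stellate cell markers 9.24% in KI and 9.17% in WT over 4, and cholangiocyte markers 0.924% in KI and 0.514% in WT over 2, and none of these was called. Over the whole gene, 5 of 8 hepatocyte markers were called lower with a median difference of -7.93 points, 5 of 7 blood and Kupffer cell markers with -7.62, 5 of 5 endothelial markers with -2.39, and 1 of 4 stellate cell markers with -1.24. Of 4 cholangiocyte markers 2 were lower and 1 higher, with a median of -1.05 points. Of all autosomal protein-coding genes tested, 32.0% were called lower and 1.14% higher over the whole gene. At the 5' ends these shares were 6.46% and 1.17%. The part of cell makeup in the differences below was not tested.

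The 60 genes held 1370 of the shared CpGs, and 21 of them held none. Of the 60 genes, 39 had at least 1 shared CpG, a share of 65.0%, against 82.1% of all autosomal protein-coding genes. The genes that could be tested were 11 UGT, 11 SULT and 16 GST. The whole Ugt2a and Ugt2b cluster, whose enzymes conjugate steroids and bile acids, was missing: none of its 9 genes had a shared CpG. Ugt2b1 and Ugt2b34 had 0 CCGG sites in the gene and its 2 kb upstream, while Ugt2b36 had 10 and Ugt2a1 had 9. Also without a shared CpG were Ugt3a2, the phenol sulfotransferase Sult1a1, the estrogen sulfotransferase Sult1e1, Sult1d1, Sult2a1, Sult3a1, the alpha class genes Gsta1, Gsta2 and Gsta3, Gstm2, Gstm2-ps1 and Gstt4. Sult1c2 had 1 shared CpG and was not tested, and Sult2a8 has no entry of that name in the annotation used. A UGT gene had a median of 5.55 CpG sites per kb and a SULT gene 6.48, against 12.4 in all autosomal protein-coding genes, while GST genes had 12.5. The median number of CCGG sites was 10 in UGT, 10 in SULT and 9 in GST genes, against 22 in all genes. The plot of shared CpGs by CCGG sites shows that many genes with 10 or fewer sites gave no value.

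**Figure D1:**
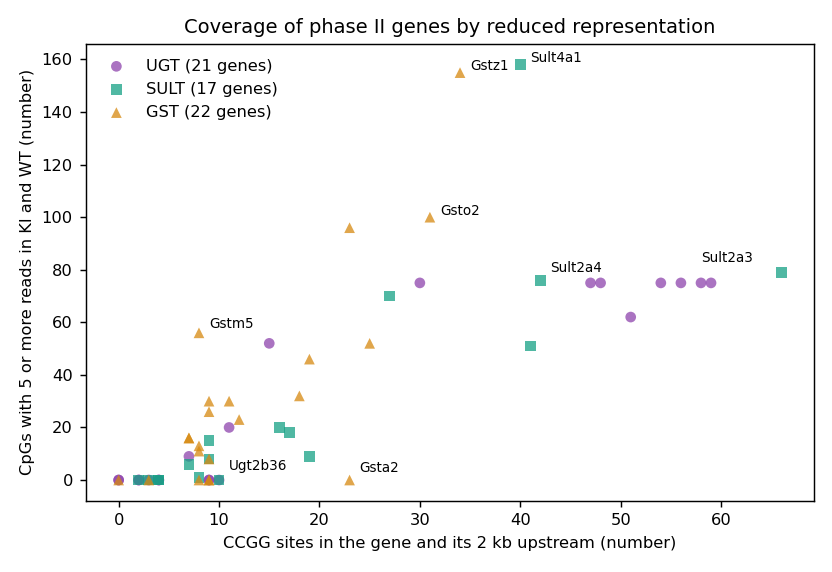
CpGs with 5 or more reads in KI and in WT (vertical axis, number) against CCGG sites in the gene and its 2 kb upstream (horizontal axis, number) for the 60 phase II genes, with circles for UGT, squares for SULT and triangles for GST. Sult4a1, with 158 CpGs, and Gstz1, with 155, are the best covered, and the 21 genes on the bottom line at 0, such as Gsta2 and Ugt2b36, gave no value.

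Methylation of the measured phase II genes was lower in KI than in WT. Over the 1370 CpGs, each counted once, the mean level was 36.4% in KI and 39.3% in WT, a difference of -2.87 points (-3.33 to -2.41), against -1.68 points in the other autosomal protein-coding genes. KI was below WT at 578 of these CpGs, above WT at 334 and at the same level at 458. Over the whole gene, 11 of the 38 tested genes were called lower and 0 higher. The background was 32.0% called lower and 1.14% called higher of all 16996 autosomal protein-coding genes tested, so the share of 28.9% of phase II genes was near it. The mean level was lower in KI at 35 of the 38 genes, higher at Sult6b1, and equal at Gstp1 and Gstm4, where all CpGs were at 0. Of all autosomal protein-coding genes tested, 77.2% had a lower mean level in KI. The median difference was -2.64 points over the phase II genes and -0.90 points over the other genes. In part the count of 35 genes and the phase II median repeat 1 set of CpGs, since 7 genes of the Ugt1a cluster share all of theirs.

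The mean level was highest in SULT and lowest in GST genes, and the difference was largest in SULT, while UGT and GST had differences of about the same size. SULT genes had 49.5% in KI and 53.9% in WT over 511 CpGs, a difference of -4.39 points (-5.17 to -3.62). UGT genes had 41.4% in KI and 43.4% in WT over 157 CpGs, a difference of -2.02 points (-3.42 to -0.62). GST genes had 25.8% in KI and 27.7% in WT over 702 CpGs, a difference of -1.95 points (-2.57 to -1.34). Relative to WT, the mean level of SULT genes changed by -8.15%, that of UGT genes by -4.66%, that of GST genes by -7.04% and that of the other genes by -4.58%. By count, 6 of 11 SULT genes were called lower, 3 of 11 UGT genes and 2 of 16 GST genes, beside 32.0% of all genes tested. Of the 11 UGT genes, 7 share all of their CpGs. Among genes whose mean of KI and WT was 50% or more, 5 of 8 SULT genes were called lower, a share of 62.5%. In that range 1 of 9 UGT genes and 0 of 5 GST genes were called lower, against 50.8% of the other genes. No test of the classes against each other was made, since genes of a cluster share CpGs and sequence.

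**Figure D2:**
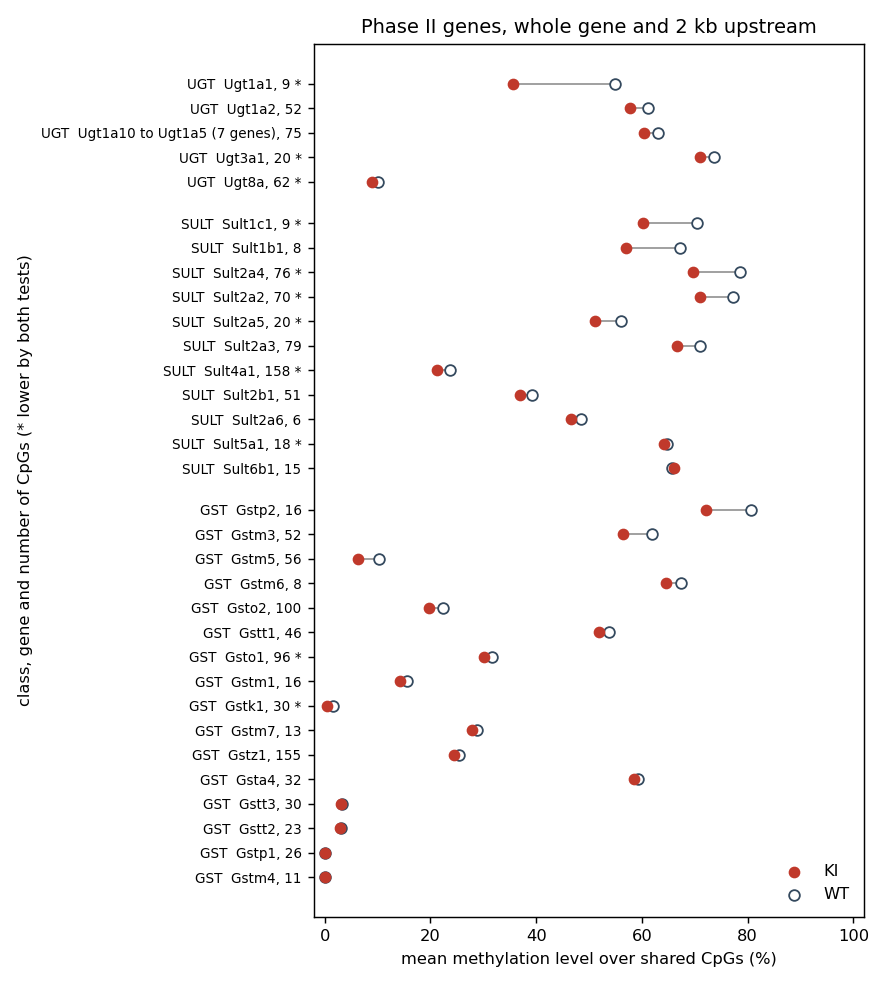
Mean methylation level over shared CpGs (%) in KI (filled) and WT (open) for the tested genes of each class, whole gene with 2 kb upstream, with the number of CpGs after the gene name and an asterisk where both tests called the gene lower. KI lies left of WT at 35 of 38 genes, and the widest gaps are at Ugt1a1, Sult1c1 and Sult1b1, which have 9, 9 and 8 CpGs.

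Since a CpG at a low level has little to lose, CpGs of like level were also set side by side, leaving out those in CCGG. Where the level with KI and WT pooled was under 20%, the difference was close to 0 in every class, at -0.57 points in UGT, -0.49 in SULT, 0.08 in GST and -0.12 in the other genes. Between 20 and 70%, the difference was -4.52 points in UGT (-11.1 to 2.10, 22 CpGs), -11.3 in SULT (-15.6 to -6.89, 48 CpGs) and -12.9 in GST (-17.1 to -8.73, 70 CpGs), against -6.95 in the other genes. Over 70%, it was -1.22 points in UGT, -4.88 in SULT and -2.81 in GST, against -2.79 in the other genes. The UGT value between 20 and 70% was mixed: KI lay below WT at 10 of the 22 CpGs and above it at 12. The median difference of these CpGs was 2.16 points, opposite in sign to their mean. That mean holds a Ugt1a1 CpG at chr1:90111640, with 0 of 5 reads methylated in KI and 4 of 5 in WT. The 324 GST CpGs under 20% were most of the 519 measured in that class outside CCGG, while SULT had 106 of 340 there. CpGs of 1 fragment share reads, so these intervals are too narrow. By gene, with the CpGs in CCGG kept, GST did not stand apart. For genes whose mean of KI and WT was 20 to 50%, the median difference was -1.22 points in GST and -1.21 in the other genes. For those at 50% or more it was -2.81 in GST and -2.84 in the other genes. The medians of SULT genes in these ranges were -2.13 and -5.61 points.

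**Figure D3:**
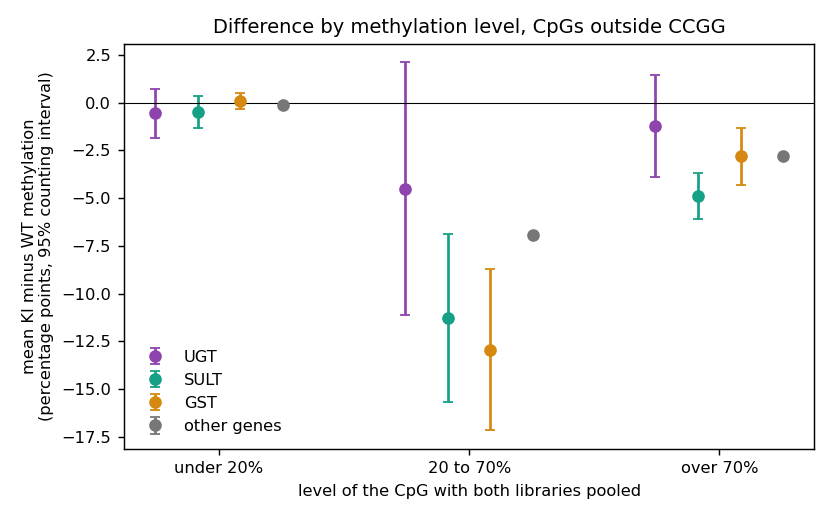
Mean KI minus WT methylation (percentage points, bars 95% counting intervals) at CpGs outside CCGG, by their level with KI and WT pooled, for UGT, SULT, GST and all other autosomal protein-coding genes. SULT and GST lie below the other genes between 20 and 70%, at -11.3 and -12.9 points against -6.95, and all 4 lie near 0 under 20%. The UGT mean between 20 and 70% is below 0, while the median of its 22 CpGs is 2.16 points.

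Among the sulfotransferases, 251 of the 511 CpGs lay in the Sult2a cluster on chromosome 7, whose enzymes sulfate hydroxysteroids and bile acids and are expressed more in female than in male mouse liver. Over this cluster the mean level was 67.1% in KI and 73.3% in WT, a difference of -6.19 points (-7.26 to -5.11), with 173 CpGs lower and 59 higher. Outside CCGG it was 80.8% in KI and 87.4% in WT. Without the Sult2a genes the SULT difference was -2.66 points.

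Sult2a4 (chr7:14495026-14574974, minus strand) had 69.7% in KI and 78.5% in WT over 76 CpGs, a difference of -8.77 points (-10.2 to -7.35), with 64 CpGs lower and 11 higher. Its adjusted p was 4.13e-38 by Fisher's exact test and 1.61e-71 by CMH. Sult2a2 (chr7:14318855-14364985, plus strand) had 71.1% in KI and 77.3% in WT over 70 CpGs, a difference of -6.22 points (-7.70 to -4.73; adjusted p = 3.36e-10 by Fisher's exact test, 1.96e-16 by CMH). Both genes were called lower, also without the CpGs in CCGG. Sult2a5 (chr7:14209341-14256150) was called lower with 51.1% in KI and 56.1% in WT over 20 CpGs, but over the 7 outside CCGG the levels were 70.9% in KI and 73.3% in WT and it was not called (larger adjusted p of Fisher's exact test and CMH 0.117). Sult2a3, with 79 CpGs, had 66.7% in KI and 71.0% in WT and passed CMH (adjusted p = 0.0045) but not Fisher's exact test (adjusted p = 0.341). Sult2a6, named after its values were seen, had 46.7% in KI and 48.5% in WT over 6 CpGs and was not called.

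Several of the largest differences of the cluster lay in a stretch of sequence that Sult2a4 and Sult2a2 have in common. Parts of this stretch occur many times in mm9, as given below. The fragments of both genes are shown because the same CpGs can be followed in each. The Sult2a4 fragment, chr7:14575265-14575422, lies 448 to 291 bp upstream of the gene, and the Sult2a2 fragment, chr7:14355611-14355770, lies in an intron. Each runs from one CCGG to the next on the strand of its gene in mm9, with the measured CpGs in capitals.
Sult2a4: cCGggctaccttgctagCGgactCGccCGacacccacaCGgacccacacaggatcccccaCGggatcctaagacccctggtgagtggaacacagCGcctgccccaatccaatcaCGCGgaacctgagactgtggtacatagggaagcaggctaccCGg
Sult2a2: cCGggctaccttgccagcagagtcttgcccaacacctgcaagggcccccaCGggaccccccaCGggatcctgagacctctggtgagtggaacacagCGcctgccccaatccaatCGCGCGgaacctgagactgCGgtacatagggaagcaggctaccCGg
These fragments are identical at 143 of 160 aligned positions, or 89.4%. Counting bases from 1 at the 5' end of each, the CpG at base 61 of the Sult2a4 fragment was the lowest in KI outside CCGG. On the strand opposite to the gene 91 of 186 reads were methylated in KI and 168 of 206 in WT, levels of 48.9% in KI and 81.6% in WT (adjusted p = 6.03e-09, Fisher's exact test over all CpGs). On the strand of the gene the same CpG had 45.1% in KI and 69.8% in WT. The CpG that aligns with it, at base 63 of the Sult2a2 fragment, had 60.7% in KI and 74.3% in WT on the opposite strand, and 54.1% in KI and 70.6% in WT on the strand of the gene. At base 115 of the Sult2a4 fragment the levels were 67.9% in KI and 87.9% in WT on the opposite strand. Its counterpart at base 117 of the Sult2a2 fragment was called, with 69.0% in KI and 94.3% in WT on that strand. The next CpG, 2 bases on, differed less, with 93.0% in KI and 95.7% in WT at Sult2a4 and 88.1% in KI and 97.1% in WT at Sult2a2. Within a few bases, then, some CpGs stood well below WT and others close to it, on either strand. Outside CCGG, 15 of 16 CpGs of the Sult2a4 fragment and 13 of 14 of the Sult2a2 fragment were lower in KI.

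**Figure D4:**
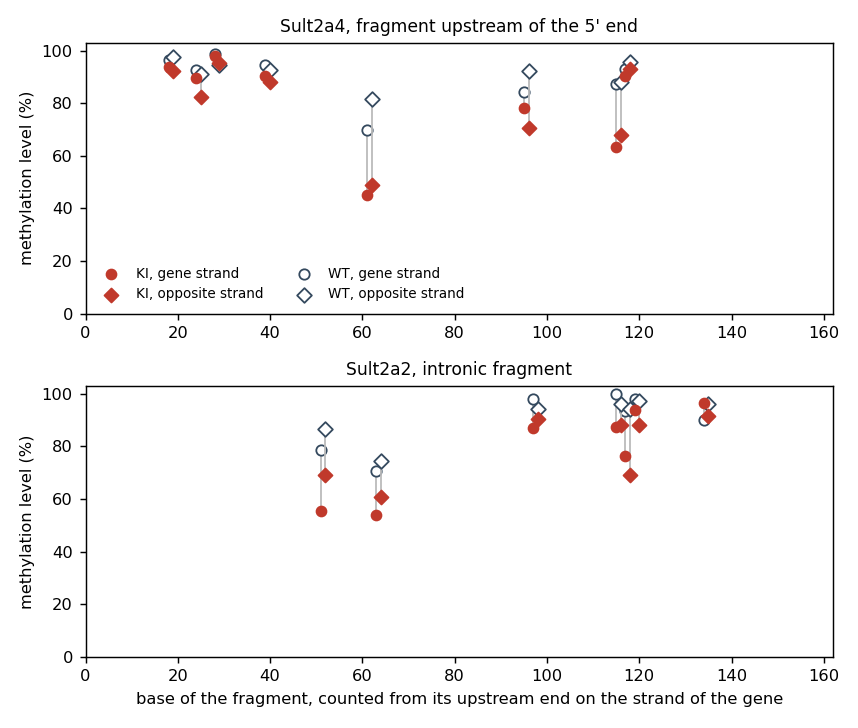
Methylation level (%) of each CpG outside CCGG in the Sult2a4 and Sult2a2 fragments by base of the fragment, in KI (filled) and WT (open), with circles for the strand of the gene and diamonds for the opposite strand. The CpG at base 61 of Sult2a4 stands at 45.1% and 48.9% in KI, against 69.8% and 81.6% in WT, while CpGs at the left of that fragment are above 80% in KI and WT.

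Other called CpGs of the cluster lay in introns within CCGG sites. One in Sult2a4, 66281 bp from the 5' end, had 40.4% in KI and 71.1% in WT (36 of 89 and 86 of 121 reads), and one in Sult2a3, 23920 bp from the 5' end, had 54.1% in KI and 83.1% in WT (33 of 61 and 74 of 89 reads). Repeated sequence is a limit here: for 198 of the 511 SULT CpGs the 31 bases around the CpG occur more than once in mm9, and these had 66.6% in KI and 72.6% in WT. At the 313 others the levels were 38.7% in KI and 42.1% in WT, a difference of -3.34 points. At Sult2a2 the called CpG has 923 copies of its 31 bases, while the called CpG at base 61 of the Sult2a4 fragment has 1. Other CpGs of the Sult2a4 fragment are repeated too. On the opposite strand, those at bases 95 and 115 have 2256 and 126 copies. Only uniquely mapped reads were kept in the deposited files, and how far reads of near-identical copies were misplaced was not tested.

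Of the other sulfotransferases, Sult1c1 (chr17:54100940-54129999, minus strand) had the largest difference among the called genes, with 60.1% in KI and 70.5% in WT over 9 CpGs, -10.4 points (-14.6 to -6.18; adjusted p = 4.26e-05 by Fisher's exact test, 2.68e-09 by CMH). None of its CpGs was higher in KI. The 31 bases around each of these CpGs occur 12 to 503 times in mm9. An intronic fragment, chr17:54122524-54122720, shown because its CpGs at bases 64 and 137 stand in the same run of 37 bases, was read on the strand opposite to the gene.
Sult1c1: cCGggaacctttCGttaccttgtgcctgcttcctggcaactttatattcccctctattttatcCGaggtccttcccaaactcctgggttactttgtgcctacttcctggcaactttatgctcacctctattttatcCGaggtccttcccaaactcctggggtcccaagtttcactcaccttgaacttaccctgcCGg
Its CpGs at bases 13, 64 and 137, outside CCGG, had 87.9%, 72.9% and 63.9% in KI, against 92.7%, 84.8% and 84.4% in WT. These levels rested on 132 or 133 reads in KI and 315 in WT. Coverage of Sult1c1 in KI was 0.453 of that in WT, against 0.907 over all shared autosomal CpGs, and the gene lies 2.34 Mb from Uhrf1 on the chromosome that carries the KI allele. Within 1 Mb of it, 8 of 877 CpGs with 20 or more reads in either library had such reads in KI and 0 in WT, and 26 had them in WT and 0 in KI. Over all autosomes these numbers were 1661 and 800 of 1938738. The part of sequence differences between the strains near the allele was not tested.

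Sult4a1 (chr15:83906527-83936184, minus strand), a brain sulfotransferase without a known substrate, had 158 CpGs, more than any other phase II gene. Its mean level was 21.3% in KI and 23.8% in WT, a difference of -2.50 points (-3.85 to -1.16; adjusted p = 2.87e-25 by Fisher's exact test, 1.38e-05 by CMH). Coverage was uneven. The CpG at chr15:83935880, at 7.8% in KI and 0% in WT, had 64 reads in KI and 26 in WT. That at chr15:83911916, at 69.0% in KI and 78.7% in WT, had 58 and 89. The part of this in the result of Fisher's exact test on summed reads was not tested. The largest called loss of all phase II CpGs was in its intron, on a fragment at chr15:83928183-83928472 read on the strand opposite to the gene.
Sult4a1: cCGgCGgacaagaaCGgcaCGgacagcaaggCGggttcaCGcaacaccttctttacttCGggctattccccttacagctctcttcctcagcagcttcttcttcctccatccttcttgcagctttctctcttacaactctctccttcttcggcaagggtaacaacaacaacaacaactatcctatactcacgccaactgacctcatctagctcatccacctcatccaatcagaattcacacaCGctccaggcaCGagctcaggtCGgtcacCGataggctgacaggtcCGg
In the last CpG of this fragment, at base 288, 15 of 39 reads were methylated in KI and 41 of 46 in WT, levels of 38.5% in KI and 89.1% in WT (adjusted p = 0.000139, Fisher's exact test). The CpG lies in CCGG. Those before it, at bases 253, 264 and 271, had 39.5%, 51.3% and 71.8% in KI, against 68.8%, 70.2% and 91.5% in WT, whereas the CpGs at bases 5 to 40 had 89.7 to 94.9% in KI and 91.5 to 93.6% in WT. At base 59, nearer the other end, 25 of 39 reads were methylated in KI and 43 of 47 in WT, levels of 64.1% in KI and 91.5% in WT. CpGs well below WT thus stood at several places of the fragment beside others close to it.

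Sult5a1 (chr8:125666747-125682215) was called lower with a difference of -0.59 points, 64.2% in KI and 64.8% in WT over 18 CpGs (-5.29 to 4.11), and was not called without the CpGs in CCGG (larger adjusted p of Fisher's exact test and CMH 0.626). All of its CpGs also lie in the span of another protein-coding gene or its 2 kb upstream. Sult2b1, which sulfates cholesterol and pregnenolone, had 37.0% in KI and 39.1% in WT over 51 CpGs and was not called over the whole gene. Sult1b1 and Sult6b1 were chosen after their values were seen, as the lowest and the highest of the genes that were not called. Sult1b1, which acts on phenols and thyroid hormones, had 57.0% in KI and 67.1% in WT over 8 CpGs, all in 31-base words with several copies. Sult6b1, on chromosome 17 as well, had 66.1% in KI and 65.8% in WT over 15 CpGs at a coverage in KI of 0.428 of that in WT. It lies 22.8 Mb from Uhrf1. Within 1 Mb of it, 1635 CpGs had 20 or more reads in either library. Of these, 53 had such reads in KI and 0 in WT, and 0 had them in WT and 0 in KI. Over all autosomes these numbers were 1661 and 800 of 1938738, and the part of this in its values was not tested.

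Among the glucuronosyltransferases, the Ugt1a genes make 1 complex in which alternative first exons join shared later exons. Ugt1a10, Ugt1a9, Ugt1a8, Ugt1a7c, Ugt1a6a, Ugt1a6b and Ugt1a5 hold the same 75 CpGs, so they are 1 measurement: 60.3% in KI and 62.9% in WT, a difference of -2.64 points (-5.44 to 0.16) that was not called, with 34 CpGs lower and 36 higher. Ugt1a2, with 52 of these CpGs, had 57.7% in KI and 61.1% in WT and was not called. Ugt1a1 (chr1:90108534-90115572), the enzyme that conjugates bilirubin, had 35.5% in KI and 54.9% in WT over 9 of these CpGs, -19.3 points (-28.1 to -10.5; adjusted p = 0.0257 by Fisher's exact test, 0.000791 by CMH). The first 3 of these CpGs had 5 or 6 reads in KI and 5 to 9 in WT. With a minimum of 10 reads, the other 6 CpGs gave a difference of -6.20 points and Ugt1a1 was not called (larger adjusted p of Fisher's exact test and CMH 0.0512). Those 6 lie in 1 fragment in an exon near the 3' end, of which the first 30 bases, chr1:90114823-90114852, are shown because they hold its CpG outside CCGG, at base 6.
Ugt1a1: cCGgcCGcccatgacctcacctggtatcag
At base 6 the level was 54.0% in KI and 74.0% in WT on the strand of the gene (137 and 104 reads), and 65.6% in KI and 68.8% in WT on the opposite strand (212 and 247 reads). Without the CpGs of Ugt1a1, the UGT difference was -0.97 points.

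Ugt3a1 (chr15:9209584-9244787), whose human counterpart uses N-acetylglucosamine as its sugar, had 71.0% in KI and 73.7% in WT over 20 CpGs, -2.64 points (-3.58 to -1.69; adjusted p = 1.01e-06 by Fisher's exact test, 1.60e-09 by CMH). Of its CpGs, 16 lie in the intronic fragment chr15:9229525-9229707, 8 on each strand, printed on the strand of the gene.
Ugt3a1: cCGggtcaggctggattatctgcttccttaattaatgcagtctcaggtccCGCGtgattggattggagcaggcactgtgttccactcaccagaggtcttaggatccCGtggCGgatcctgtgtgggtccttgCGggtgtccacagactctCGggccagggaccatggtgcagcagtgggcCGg
Turned to the opposite strand, this fragment aligns with the upstream fragment of Sult2a4 printed above, identical at 132 of 169 positions, or 78.1%. This match was noticed after the values were seen. The CpG at base 107 corresponds to base 61 of the Sult2a4 fragment. It had 73.3% in KI and 86.7% in WT on the strand of the gene and 79.4% in KI and 84.4% in WT on the other, so that it also held the largest difference outside CCGG in its fragment. All other CpGs of the fragment outside CCGG, its opposite strand included, differed by between -5.78 and 1.10 points. The loss at the matching CpG was smaller at Ugt3a1 than at Sult2a4, whose strands differed by -24.7 and -32.6 points. At base 107 of Ugt3a1, the 31 bases around the cytosine on the strand of the gene occur 80 times in mm9.

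Ugt8a (chr3:125568277-125641468), which adds galactose to ceramide for myelin, had a low level of 8.90% in KI and 9.98% in WT over 62 CpGs. It was called lower (adjusted p = 0.00692 by Fisher's exact test, 9.92e-05 by CMH), but not without the CpGs in CCGG, where it had 2.73% in KI and 3.39% in WT (larger adjusted p of Fisher's exact test and CMH 0.462).

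Among the glutathione S-transferases, 2 of 16 genes were called. By the mean of KI and WT, 7 of the 16 were under 20%, 4 between 20 and 50% and 5 above. Gsto1 (chr19:47929460-47939280), an omega class enzyme that reduces dehydroascorbate and methylated arsenic, had 30.1% in KI and 31.6% in WT over 96 CpGs and was called lower (adjusted p = 3.37e-05 by Fisher's exact test, 6.79e-05 by CMH), with 20 CpGs lower and 20 higher. All 96 CpGs also lie in the span of another protein-coding gene or its 2 kb upstream. Gstk1 (chr6:42195934-42200440), the mitochondrial and peroxisomal kappa class enzyme, had 7 methylated of 1881 reads in KI and 21 of 1543 in WT. That is a mean level of 0.485% in KI and 1.49% in WT over 30 CpGs, all within 1 kb of the 5' end, and it was called lower (adjusted p = 0.00446 by Fisher's exact test, 0.00584 by CMH). Without the CpGs in CCGG it was not called (larger adjusted p of Fisher's exact test and CMH 0.147). Its upstream fragment, chr6:42195682-42195890, is shown because it held 6 of the 7 methylated reads in KI and all 21 in WT.
Gstk1: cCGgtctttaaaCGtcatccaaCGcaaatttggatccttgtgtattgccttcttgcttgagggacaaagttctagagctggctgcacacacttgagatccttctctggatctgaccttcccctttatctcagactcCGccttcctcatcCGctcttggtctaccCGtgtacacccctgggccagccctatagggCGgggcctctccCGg
At base 23 of it, the level on the opposite strand was 3.53% in KI and 11.7% in WT (85 and 77 reads), and from base 137 to base 195 every CpG was at 0% in KI and in WT. Gstk1 was therefore close to unmethylated in KI and WT.

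Gstz1 (chr12:88488668-88505673), maleylacetoacetate isomerase of tyrosine breakdown, had 24.4% in KI and 25.3% in WT over 155 CpGs, -0.87 points (-2.08 to 0.35), and was called lower only after thinning to equal reads or by CMH alone. It held a called loss and the only called gain of the phase II genes. Over all shared CpGs, 1.09% were called lower and 0.0474% higher, and in the phase II genes 7 of 1370 were called lower and 1 higher. The loss lay in the intronic fragment chr12:88489500-88489695, whose CpGs also lie in the span of another protein-coding gene or its 2 kb upstream.
Gstz1: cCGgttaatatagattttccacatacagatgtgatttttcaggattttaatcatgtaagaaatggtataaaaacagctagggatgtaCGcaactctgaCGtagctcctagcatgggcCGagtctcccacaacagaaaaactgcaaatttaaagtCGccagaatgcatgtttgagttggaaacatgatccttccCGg
At base 88, on the strand of the gene, 10 of 64 reads were methylated in KI and 35 of 72 in WT, levels of 15.6% in KI and 48.6% in WT (adjusted p = 0.00372, Fisher's exact test). On the opposite strand the same CpG had 34% in KI and 31.2% in WT. Over the fragment, the 3 CpGs outside CCGG on the strand of the gene averaged 11.5% in KI and 32.6% in WT, and the 4 on the opposite strand 25.8% in KI and 21.5% in WT. The strands of this fragment therefore differed between KI and WT in opposite directions. The gain lay 7180 bp from the 5' end, in CCGG, with 6 of 6 reads methylated in KI and 0 of 9 in WT (adjusted p = 0.0111, Fisher's exact test), and with a minimum of 10 reads it was not measured.

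Gsto2 (chr19:47940035-47960814), the other omega class gene, had 19.7% in KI and 22.4% in WT over 100 CpGs and passed CMH (adjusted p = 5.30e-06) but not Fisher's exact test (adjusted p = 0.379), while it was called after thinning. All of these CpGs also lie in the span of another protein-coding gene or its 2 kb upstream. The called CpG of Gsto2 lay in an exonic fragment, chr19:47946523-47946643.
Gsto2: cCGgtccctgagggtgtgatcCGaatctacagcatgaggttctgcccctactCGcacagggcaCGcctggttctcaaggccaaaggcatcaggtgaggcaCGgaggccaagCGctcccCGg
At base 22, on the opposite strand, 23 of 50 reads were methylated in KI and 34 of 40 in WT, levels of 46% in KI and 85% in WT (adjusted p = 0.00918, Fisher's exact test), and on the strand of the gene it had 52.6% in KI and 68.8% in WT. Other CpGs of the fragment went either way, as at base 64, where KI had 78.9% and WT 68.8% on the strand of the gene.

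The mu class genes lie together on chromosome 3. Over their 148 CpGs the level was 26.2% in KI and 29.8% in WT, a difference of -3.62 points (-5.24 to -2.0), and none was called. Gstm1 had 14.2% in KI and 15.6% in WT over 16 CpGs, all of which lie within 1 kb of its 5' end. Gstm3, named after its values were seen, had 56.5% in KI and 61.8% in WT over 52 CpGs and was not called. Without the CpGs in CCGG it had 66.3% in KI and 75.1% in WT and was called lower, as it was with strands summed and after thinning. Gstt1, a theta class enzyme that acts on halomethanes, had 51.9% in KI and 53.7% in WT over 46 CpGs and was not called. Gstp1, the pi class enzyme, had 0 methylated of 231 reads in KI and 0 of 217 in WT over 26 CpGs.

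At the 5' ends, taken as 1 kb on each side, 3 of 18 tested genes were called lower and 0 higher, against 6.46% lower and 1.17% higher of all 13456 tested 5' ends. Most of these 5' ends were already unmethylated: 11 of the 18 were under 10% in WT, a share of 61.1%, against 79.5% over all genes. Sult2a4 had 78.3% in KI and 85.7% in WT over 38 CpGs, -7.42 points (-8.47 to -6.37; adjusted p = 5.07e-24 by Fisher's exact test, 1.30e-39 by CMH). It was the most methylated of the 5' ends tested in WT, and kept its call without the CpGs in CCGG, where it had 85% in KI and 92.6% in WT. The 31 bases around the CpGs of this 5' end occur between 1 and 2256 times in mm9. Sult2b1 had 14.1% in KI and 17.6% in WT over 28 CpGs, -3.55 points (-5.88 to -1.23; adjusted p = 0.0201 by Fisher's exact test, 0.0017 by CMH), but was not called after the reads were thinned to equal numbers (larger adjusted p of Fisher's exact test and CMH 0.12). Gstk1, described above, was the third, and it was not called after thinning or without the CpGs in CCGG (larger adjusted p of Fisher's exact test and CMH 0.0803 and 0.424). After thinning, the 5' end of Gstm3 was called lower instead. Its CpGs had only 5 to 9 reads in KI and 6 to 10 in WT before thinning. Ugt8a, the only UGT 5' end tested, had 3.28% in KI and 4.38% in WT over 54 CpGs. Sult4a1 had 6.73% in KI and 6.67% in WT over 109, Gstz1 1.68% in KI and 2.23% in WT over 93, Gsto1 7.99% in KI and 7.59% in WT over 62, and Gstm5 6.37% in KI and 10.4% in WT over 56. None of these was called.

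The 5' end of Gstm1 is printed because this gene, abundant in liver, was low over part of its upstream sequence in KI and in WT. The fragment, chr3:107821277-107821469, lies 578 to 386 bp from the gene.
Gstm1: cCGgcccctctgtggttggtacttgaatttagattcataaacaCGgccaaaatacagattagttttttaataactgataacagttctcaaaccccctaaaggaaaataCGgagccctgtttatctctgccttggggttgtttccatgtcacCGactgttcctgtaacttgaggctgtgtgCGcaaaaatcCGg
At base 44 the levels were 21.0% in KI and 25% in WT on the opposite strand, and at bases 109 to 181 no CpG was above 4.82% in KI or 4.44% in WT.

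**Figure D5:**
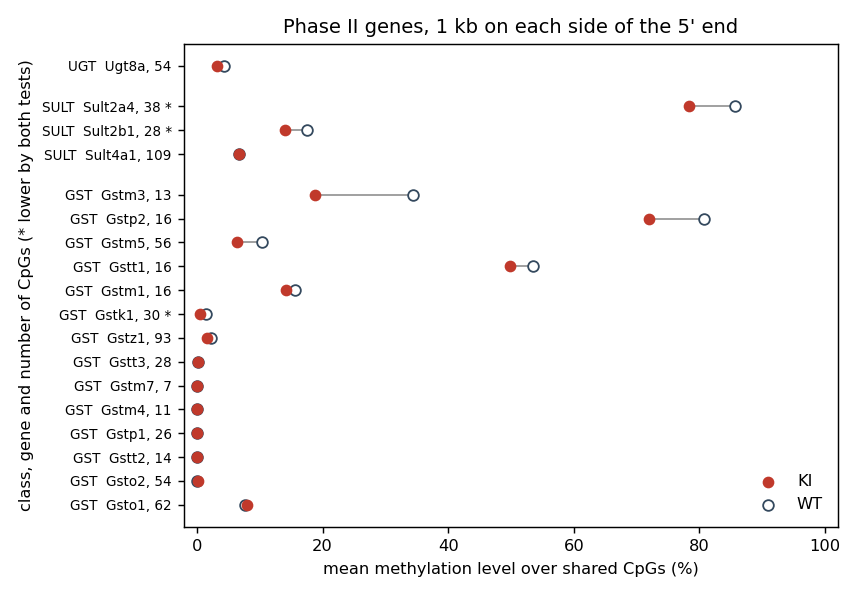
Mean methylation level over shared CpGs (%) within 1 kb of the 5' end in KI (filled) and WT (open) for the 18 tested genes, with the number of CpGs after the name and an asterisk where both tests called the 5' end lower. Sult2a4 is the highest, at 78.3% in KI and 85.7% in WT, and 11 genes lie under 10% in WT.

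Where CCGG sites were read on opposite strands, 1 cytosine of the pair was far below the other. In 166 such pairs the higher cytosine averaged 58.4% in KI and 62.3% in WT, and the lower one 5.37% in KI and 5.62% in WT. In the 406 pairs outside CCGG the higher one averaged 39.0% in KI and 41.7% in WT, and the lower one 32.6% in KI and 35.6% in WT. Repair of MspI ends is known to place unmethylated cytosines there, and the part of this in the values was not tested. Without CCGG the differences were -4.41 points in SULT, -1.63 in UGT (-3.41 to 0.15) and -2.37 in GST. Of 34 genes tested, 7 were called lower, namely Sult2a4, Sult2a2, Sult1c1, Sult4a1, Ugt3a1, Gsto1 and Gstm3. In the same setting 32.0% of all autosomal protein-coding genes tested were called lower.

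Genes that supply the conjugation reactions or carry out others were taken as a list of 29, of which 25 were tested. Of these, 6 were called lower and 1 higher, beside the 32.0% lower and 1.14% higher of all genes. The median difference was -0.56 points, against -0.91 over all autosomal protein-coding genes and -2.64 in the phase II genes. The largest called losses were at Inmt, an indolethylamine methyltransferase, with 51.8% in KI and 57.0% in WT over 30 CpGs, and at the epoxide hydrolase Ephx1, with 49.3% in KI and 52.7% in WT over 50. Ahr, the receptor that induces phase II genes on exposure to dioxins, was higher, with 25% in KI and 16.1% in WT over 28 CpGs, 8.93 points (4.34 to 13.5; adjusted p = 0.000156 by Fisher's exact test, 0.000522 by CMH), on 204 reads in KI and 165 in WT. Of these CpGs, the 19 within 1 kb of the 5' end were at 0% in KI and in WT, so the difference lay in the others. At the 5' ends, 2 of 18 were called lower, Gsr and Ugdh, the enzyme that makes UDP-glucuronic acid, and 0 higher. At Ugdh the levels were 0% in KI and 0.193% in WT. The genes that make or carry the sulfate donor, Papss1, Papss2, Slc35b2 and Slc35b3, were not called.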

How the data were processed

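Liver DNA of KI and WT mice was analysed as 1 RRBS library for each genotype, each a pool of 3 mice. The authors aligned the reads to mm9 with Bismark (0.12.20 in the submitters' processing notes) and deposited, for each CpG cytosine, the coverage as a count of uniquely mapped reads and the percent of methylated and unmethylated reads. Treatment of duplicates and trimming are not given in the sources used here. Per the file headers the deposited strand column holds F at every row, so strand was read from the mm9 sequence, and all 9172045 listed positions lay on a CpG. Methylated reads were recovered from coverage and percent, and 100% came out whole to the 2 decimals deposited. Coverage summed over listed CpGs was 173109895 in KI and 192144002 in WT. Genes came from the GENCODE annotation of mm9. Tests were run in Python 3.11.15 with numpy 2.4.6, scipy 1.17.1 and numba 0.67.0, adjusted by Benjamini-Hochberg over all CpGs or all autosomal protein-coding genes tested, and tested on simulated data. Sequences were read from mm9 as MspI fragments, taking the largest called loss of a gene or otherwise the best covered fragment of the 5' end or gene, and aligned with biopython 1.88.

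Named in the text were, for whole genes, up to 6 called losses, up to 4 called gains and the 3 genes with most CpGs in each class, with ties at 75 CpGs all named, for 5' ends every called gene and the 3 with most CpGs in each class, for CpGs the 10 largest losses and 5 largest gains, a fixed list of 11 well-known genes, and the 3 largest called changes of the cofactor list. The members, lists and tests were chosen with earlier results of these data known. Alternatives were coverage minimums of 10 and 20, no CCGG, strands summed, reads thinned to equal numbers, no highest coverage, each test alone, the chi-square test, other windows, reads summed over CpGs and means over genes. Keeping only CpGs in unique 31-base words, and leaving out CpGs inside other genes, the Sult2a genes or Ugt1a1, were alternatives chosen after seeing the data.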

Additional observations from a re-analysis of the deposited data

How the results depend on the processing

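Of the 95 comparisons of a summary value with its main setting, 75 stayed within the limits set and 20 moved, and none changed direction. Called CpGs that were higher numbered 0 with a minimum of 10 or 20 reads, without CCGG and after thinning, and 2 with strands summed or by the chi-square test, while called CpGs that were lower numbered 4 without CCGG. Genes called lower numbered 7 of 34 without CCGG (32.0% of all genes) and 21 of 38 by CMH alone (45.4% of all genes). Genes called higher numbered 1 with strands summed, Gstt2, and 5' ends called lower numbered 6 of 18 by CMH alone (8.61% of all 5' ends). The mean difference over all phase II CpGs was -2.36 points with strands summed and -5.67 with reads summed over CpGs. Reads summed gave -5.49 in UGT, -7.97 in SULT and -2.86 in GST, the mean over genes gave -4.09 in UGT, and strands summed gave -0.959 in GST. For SULT the difference was -3.34 at unique 31-base words and -2.66 without the Sult2a genes, both chosen after seeing the data. Of 201 values of single genes, 181 kept their side of the threshold, 14 lost the call and 6 gained it. Thinning ended the whole-gene calls of Ugt1a1, Ugt8a, Sult2a5 and Sult5a1 and added those of Gsto2, Gstz1 and Gstm3. No paired analysis was possible because each genotype has 1 library, and for the same reason no replicate could be left out. Depth limits the genes with the fewest CpGs most, as at Ugt1a1, Sult1c1, Sult1b1 and Sult2a6.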

Other observations

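At Gstp2, a pi class gene named here after its values were seen, the difference between KI and WT was not alike on opposite strands, which was not tested. In a fragment that reaches into its 5' end, the 6 CpGs outside CCGG on the strand of the gene averaged 78.0% in KI and 95.9% in WT, with each of the 6 lower in KI by between 10.6 and 28.2 points. The 6 on the opposite strand averaged 92.1% in KI and 89.9% in WT, with 5 of 6 higher in KI. Coverage was 19 to 20 reads in KI and 44 to 45 in WT on the strand of the gene, and 50 to 51 in KI and 81 to 85 in WT on the opposite strand. With the cytosines of each strand counted separately, Gstp2 had 72.0% in KI and 80.7% in WT over 16 CpGs and was not called (adjusted p = 0.0503 by Fisher's exact test, 0.00394 by CMH). With the reads of the strands summed at each CpG it was called lower.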
